A study of Mus musculus with 8 samples.

Results

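Genes of fatty acid oxidation and ketone body synthesis were compared between HFD+WBM and HFD, the diets of OVX mice, in liver. The set was fixed by name (36 genes of the carnitine shuttle, mitochondrial and peroxisomal beta oxidation, omega oxidation and ketone body metabolism, together with a few PPAR alpha targets), and 35 of them were measured by a probe set that names that gene alone, among 19938 genes in all. The remaining gene, Cyp4v3, shares its probe set with a neighbour and has no value of its own. Of the ketone body enzymes only Bdh1 is in the set.

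The arrays held 4 OVX mice fed with HFD+WBM and 4 OVX mice fed with HFD, each mouse on an Affymetrix Mouse Gene 1.0 ST array of its own. HFD+WBM was the high fat diet with freeze-dried white button mushroom powder added. Its corn starch was reduced by less than the weight of the powder, and the other ingredients were kept. All were female C57B1/6J mice ovariectomized at 7 weeks of age, put on the diets 1 week after surgery and kept on them for 3 months. Without ovaries, any estrogen in these mice comes from other tissues, and sham mice have no array here. By the study's methods, food was matched by weight between the diets and the mice were fasted for a few hours before sacrifice, a state in which these genes are active. The arrays carried 4 of the 8 mice of each diet group. Values are log2 probe set values, so that a difference of 1 is a 2-fold change. Each array's median over all probe sets was 7.11 to 7.19 with HFD+WBM and 7.04 to 7.22 with HFD, and HFD replicate 3 lay farthest from the other arrays (SD over genes of 0.68 from their mean, against 0.38 to 0.50 for the other arrays). The liver label was checked against 8 hepatocyte genes, none of which differed at p under 0.05: the mean log2 value of these genes was 13.37 to 13.47 in HFD+WBM livers and 13.37 to 13.52 in HFD livers.

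Hepatocytes burn fatty acids in several places. Long chains enter mitochondria as carnitine esters and are shortened by repeated rounds of dehydrogenation, hydration, oxidation and thiolysis, the acetyl-CoA being turned into ketone bodies during fasting. Very long and branched chains and bile acid precursors are first shortened in peroxisomes, and cytochromes of the Cyp4a family hydroxylate the far end of the chain. Many of these genes are induced by PPAR alpha, a receptor for fatty acids that pairs with RXR and binds repeats of the letters AGGTCA.

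Little of this set differed between the diets. At p under 0.05 before adjustment from limma, 1 of the 35 genes, Acox3, was lower with HFD+WBM (6.9% of all genes tested were), 0 were higher (4.85% of all genes) and 34 did not pass. Past the study's thresholds, a change of at least 2-fold and p under 0.05, were 0 of the 35, against 0.762% of all genes, and 0 genes of the array (0%) had an adjusted p under 0.05. The methods' t-test gave the same counts of 1 lower and 0 higher. The median log2 fold change was 0.02 over the 35 genes and 0.01 over all 19938, with 22 of the 35 estimates above 0 and 13 below. The 95% confidence interval excluded a 2-fold change in either direction for 33 of the 35 genes, against 81.4% of all genes. It excluded a 1.5-fold change for 24 of the 35, against 5979 of all 19938 genes. The exceptions to 2-fold were Cyp4a10 and Pdk4. Of the 35 genes 33 had a probe signal among the brightest 10% of all genes. The exceptions were Pdk4 and Acox3, with 71.6% and 63.0% of genes below them. The median standard error of the 35 was 0.17 on the log2 scale, against 0.21 over all genes. Without HFD replicate 3 the counts were again 0 higher and 1 lower.

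**Figure D1:**
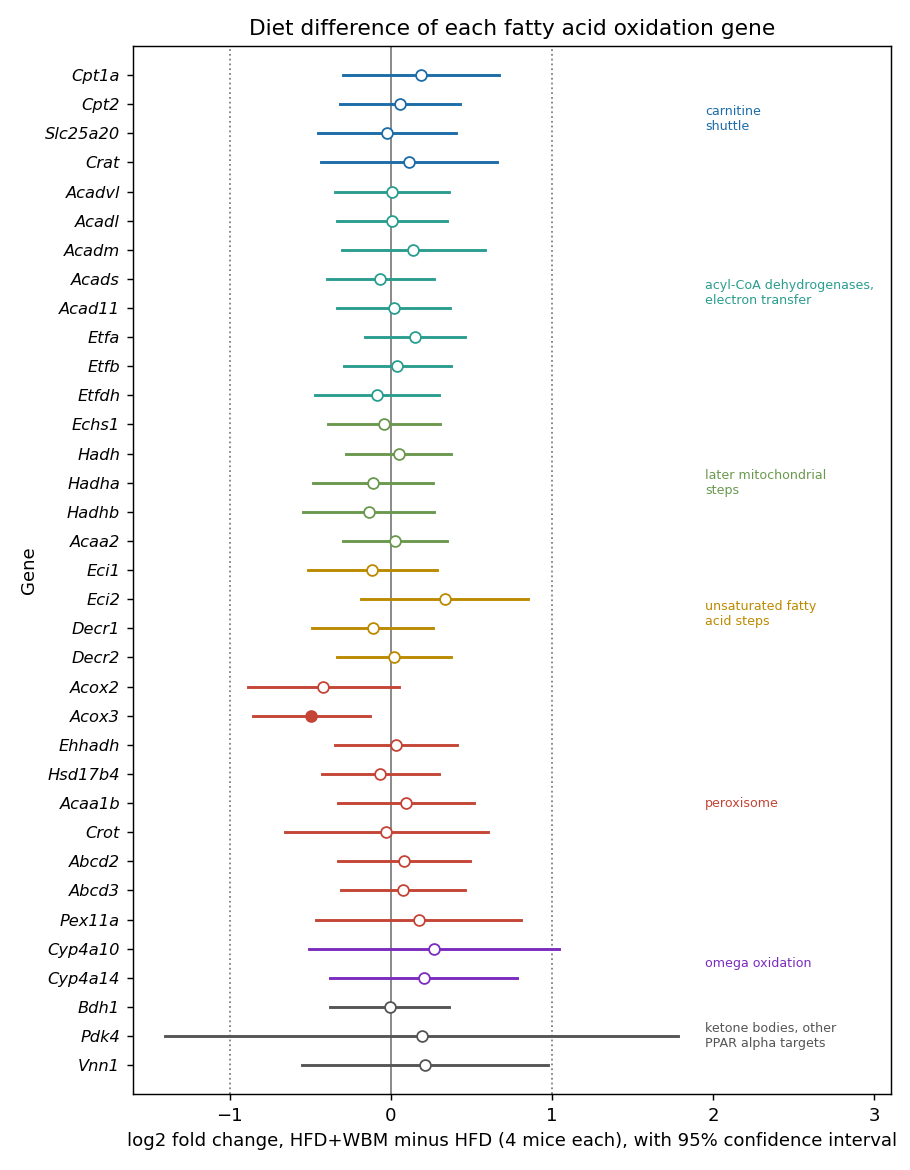
Log2 fold change of each of the 35 genes, OVX HFD+WBM minus OVX HFD (4 mice each), with its 95% confidence interval from limma, coloured by compartment; the filled point has p under 0.05 before adjustment and dotted lines mark 2-fold. Only Acox3 is filled, at -0.49, and the interval of Pdk4 is the widest, from -1.40 to 1.78.

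Acox3, the gene that passed, encodes a peroxisomal acyl-CoA oxidase of branched chains. Its log2 values were 7.69, 7.74, 7.67 and 7.50 in the HFD+WBM mice, against 8.05, 7.86, 8.44 and 8.23 in the HFD mice (HFD+WBM replicates 1 to 4, then HFD replicates 1 to 4, as for every gene below). Every HFD+WBM mouse lay below every HFD mouse, as was so for 5.02% of all genes in this direction. The means were 7.65 ± 0.10 with HFD+WBM and 8.14 ± 0.25 with HFD (SD, n = 4 each), which is 1.41-fold lower with HFD+WBM (log2 fold change -0.49, standard error 0.16). Limma gave an adjusted p of 0.38, and the exact permutation test a two-sided p of 0.029, the smallest that 4 mice against 4 allow. Leaving out any single mouse left it past p under 0.05 before adjustment, with log2 fold changes of -0.59 to -0.40. Its probe signal was the lowest of the set. With an offset of 64 before the log its log2 fold change was -0.39, still past p under 0.05 before adjustment. A list of 11 markers of Kupffer cells and macrophages moved the same way: the means of 11 were below those of HFD mice. Of these, 10 passed p under 0.05 before adjustment (not Marco), where 6.9% of all genes were lower. The mean log2 value of the list was 8.69 to 9.18 in HFD+WBM mice and 9.18 to 9.92 in HFD mice, and no marker was at 0. In whole liver, fewer cells of a type and less RNA per cell cannot be told apart, and the part of these markers in the value of Acox3 was not tested.

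Acox2, the oxidase of branched chains and bile acid intermediates, had the next smallest p of the set. Its log2 values were 10.78, 9.92, 10.31 and 10.68 in HFD+WBM mice, against 11.04, 10.60, 10.86 and 10.86 in HFD mice. Replicates 1 and 4 of the HFD+WBM mice lay above the lowest HFD mouse, so that the groups overlapped. The log2 fold change was -0.42 (standard error 0.21, adjusted p of 0.46 from limma, exact permutation p of 0.086), and without HFD+WBM replicate 1 it was -0.53 and past p under 0.05 before adjustment. Without HFD+WBM replicate 2, the lowest mouse, it was -0.25 and did not pass.

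To show the sequence around the start of transcription, start site regions (250 bases before to 50 after the start, 5′ to 3′ on the gene's strand, RefSeq, GRCm38.p6) were taken for Acox3 (chr5:35582784-35583083, plus strand), the only gene past the threshold, for Acox2 (chr14:8258790-8259089, minus strand, 1 of its 2 start sites), for Slc25a20 (chr9:108661886-108662185, plus strand), chosen because it holds a match to the motif searched and not for its diet difference, and for Pex11a (chr7:79743082-79743381, minus strand) and Crot (chr5:8997097-8997396, minus strand), which spread widely between mice. Capitals mark windows that match, on either strand and with up to 2 mismatches, a pair of AGGTCA in direct repeat with any 1 base between them, the arrangement that PPAR alpha and RXR bind. Acox2 and Slc25a20 have such a window, in both downstream of the start site, and Acox3, Pex11a and Crot have none. For a gene with several start sites the region with the most matches was shown, so that of Acox2 was also chosen by the motif. Only these regions were searched, and a match farther from the start site would be missed.
Acox3: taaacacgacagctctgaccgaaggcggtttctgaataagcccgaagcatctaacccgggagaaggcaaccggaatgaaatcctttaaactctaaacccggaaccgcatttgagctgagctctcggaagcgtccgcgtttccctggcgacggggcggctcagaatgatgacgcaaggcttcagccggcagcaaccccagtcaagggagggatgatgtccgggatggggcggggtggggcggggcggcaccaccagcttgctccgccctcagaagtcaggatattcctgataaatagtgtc
Acox2: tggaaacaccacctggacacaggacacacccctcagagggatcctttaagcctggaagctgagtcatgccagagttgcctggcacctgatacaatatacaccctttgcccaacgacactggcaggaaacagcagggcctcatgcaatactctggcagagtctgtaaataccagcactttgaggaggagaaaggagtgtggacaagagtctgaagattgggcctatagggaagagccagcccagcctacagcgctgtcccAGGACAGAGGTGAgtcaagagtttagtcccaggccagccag
Slc25a20: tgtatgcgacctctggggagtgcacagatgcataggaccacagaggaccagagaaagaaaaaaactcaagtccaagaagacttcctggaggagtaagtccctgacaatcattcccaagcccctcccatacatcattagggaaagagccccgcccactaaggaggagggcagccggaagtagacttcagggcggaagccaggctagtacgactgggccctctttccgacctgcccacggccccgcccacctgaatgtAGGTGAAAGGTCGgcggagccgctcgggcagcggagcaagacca
Pex11a: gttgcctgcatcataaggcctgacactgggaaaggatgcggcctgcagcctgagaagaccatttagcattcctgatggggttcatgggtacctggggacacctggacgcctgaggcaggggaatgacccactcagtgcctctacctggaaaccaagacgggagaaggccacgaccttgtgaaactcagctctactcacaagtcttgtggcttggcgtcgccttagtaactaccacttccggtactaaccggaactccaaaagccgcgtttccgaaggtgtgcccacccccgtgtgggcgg
Crot: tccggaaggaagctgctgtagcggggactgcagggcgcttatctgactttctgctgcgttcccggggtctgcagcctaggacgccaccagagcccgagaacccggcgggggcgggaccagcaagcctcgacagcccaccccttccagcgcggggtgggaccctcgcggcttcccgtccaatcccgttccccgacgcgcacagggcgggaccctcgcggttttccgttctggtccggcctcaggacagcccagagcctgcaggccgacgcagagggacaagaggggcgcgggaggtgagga
Start site regions were found for 27 of the 35 measured genes, and Cyp4a10, Cyp4a14, Vnn1, Crat, Abcd2, Acaa2, Decr1 and Hsd17b4 are without an entry. The exact repeat was found for 0 of these genes (0.0481% of all genes in the table hold it, and 0.0396% of all regions). With up to 2 mismatches it was found for 4 genes, Acox2, Echs1, Etfa and Slc25a20, against 4.4% of all genes in the table and 3.86% of all regions, and AGGTCA alone, exact and on either strand, which can overlap it, for Acadm, Acadvl, Cpt1a and Echs1, against 18.1% of all genes and 16.3% of all regions. A match in letters is not a site shown to be bound.

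The other genes of the peroxisome did not pass. Ehhadh, which hydrates and oxidizes the shortened chain and is a classical PPAR alpha target, had log2 values of 11.91, 12.25, 11.77 and 12.30 in HFD+WBM mice, against 12.00, 11.85, 12.15 and 12.10 in HFD mice (log2 fold change 0.03, standard error 0.17, 95% confidence interval -0.34 to 0.41). The HFD values lay inside the range of the HFD+WBM values. Acaa1b, the thiolase of the same pathway, was 11.88, 12.27, 11.92 and 12.44 in HFD+WBM mice, against 12.14, 11.67, 12.18 and 12.14 in HFD mice. Abcd2, an importer of very long chains, was 10.42, 10.79, 10.46 and 11.00 in HFD+WBM mice, against 10.70, 10.28, 10.66 and 10.71 in HFD mice. For both genes HFD replicate 2 stood below 3 HFD mice that were close to each other. Hsd17b4, the second bifunctional enzyme, and Abcd3, a further importer, had log2 fold changes of -0.06 and 0.07. Pex11a, a membrane protein that divides peroxisomes, was 10.69, 11.93, 11.43 and 11.82 in HFD+WBM mice, against 11.36, 10.90, 11.26 and 11.66 in HFD mice. Crot, which hands shortened chains to carnitine for export to mitochondria, was 11.51, 12.12, 11.87 and 12.49 in HFD+WBM mice, against 12.56, 11.40, 12.16 and 11.99 in HFD mice. Pex11a spanned 1.25 on the log2 scale among HFD+WBM mice and 0.75 among HFD mice, around a log2 fold change of 0.17. Crot spanned 0.98 among HFD+WBM mice and 1.16 among HFD mice, around a log2 fold change of -0.03. Over the 9 peroxisomal genes the median log2 fold change was 0.03.

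In the carnitine shuttle, which brings fatty acids into mitochondria, all 4 genes failed to pass and their median log2 fold change was 0.09. Cpt1a, the outer membrane transferase that malonyl-CoA inhibits, had log2 values of 11.55, 11.86, 12.23 and 12.40 in HFD+WBM mice, against 11.56, 11.68, 11.98 and 12.07 in HFD mice (exact permutation p of 0.43). The lowest mice of the diets were nearly equal and the 2 highest were fed with HFD+WBM. The 95% confidence interval of its log2 fold change, -0.30 to 0.67, leaves room for a rise of 1.59-fold. Crat, which makes acetylcarnitine, was 10.50, 11.41, 10.90 and 11.38 in HFD+WBM mice, against 10.69, 10.71, 10.99 and 11.35 in HFD mice. The inner membrane transferase Cpt2 and the translocase Slc25a20 had log2 fold changes of 0.06 and -0.02.

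The dehydrogenases that open each round, and the flavoproteins that take up their electrons, were nearly level between the diets. The 8 genes had log2 fold changes of -0.09 to 0.15 with a median of 0.01, and the confidence interval of each excluded a 1.5-fold change. Acadm, the medium-chain dehydrogenase and a PPAR alpha target, was 12.04, 12.46, 12.40 and 12.72 in HFD+WBM mice, against 12.60, 11.97, 12.33 and 12.16 in HFD mice (log2 fold change 0.14, standard error 0.20). The HFD values lay within the range of HFD+WBM but for replicate 2, which was lower. Etfa, a subunit of the electron transfer flavoprotein, had the smallest p of these genes and the smallest spread of the set: 10.89, 10.84, 10.69 and 10.86 in HFD+WBM mice, against 10.77, 10.77, 10.50 and 10.64 in HFD mice (log2 fold change 0.15, exact permutation p of 0.11). Of its HFD+WBM values 3 lay above all HFD values and replicate 3 lay among them. Acadvl, Acadl and Acads, the dehydrogenases of very long, long and short chains, had log2 fold changes of 0.01, 0.01 and -0.06. Acad11, Etfb and Etfdh, a further dehydrogenase, the second flavoprotein subunit and the oxidase that passes its electrons on, had log2 fold changes of 0.02, 0.04 and -0.09.

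The later mitochondrial steps were as level, with log2 fold changes of -0.14 to 0.05 over 5 genes and intervals that each excluded a 1.5-fold change. Hadhb, the thiolase subunit of the trifunctional protein, was 11.09, 11.65, 11.42 and 11.67 in HFD+WBM mice, against 11.87, 11.40, 11.56 and 11.54 in HFD mice. Hadha, its partner subunit, was 11.60, 12.02, 11.77 and 11.99 in HFD+WBM mice, against 12.17, 11.70, 12.03 and 11.90 in HFD mice. Both subunits placed the mice alike, with HFD+WBM replicate 1 lowest and HFD replicate 1 highest of all, and their log2 fold changes were -0.14 and -0.11. Hadhb is represented by 2 probe sets whose deposited values are equal in all 8 mice, so that they are not separate measurements. Echs1, Hadh and Acaa2, the hydratase, the short-chain dehydrogenase and the thiolase of the cycle, had log2 fold changes of -0.04, 0.05 and 0.02.

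Double bonds need extra enzymes, and among these Eci2, an isomerase of mitochondria and peroxisomes, had the largest estimate above 0 of the whole set. Its log2 values were 10.97, 11.74, 11.44 and 11.69 in HFD+WBM mice, against 11.60, 10.77, 11.08 and 11.06 in HFD mice (log2 fold change 0.33, standard error 0.23, adjusted p of 0.57 from limma, exact permutation p of 0.23). The groups overlapped through HFD+WBM replicate 1 and HFD replicate 1, which lay among the mice of the other diet. Eci1, the mitochondrial isomerase, was 10.61, 10.95, 10.93 and 11.24 in HFD+WBM mice, against 11.16, 10.75, 11.13 and 11.16 in HFD mice. Decr1, the mitochondrial reductase, was 11.48, 11.82, 11.74 and 11.97 in HFD+WBM mice, against 12.02, 11.59, 12.02 and 11.83 in HFD mice. The log2 fold changes of these 2 genes, -0.12 and -0.11, and of the peroxisomal reductase Decr2, 0.02, did not pass.

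The genes of omega oxidation varied more between mice of a diet than between the diets. Cyp4a10, a fatty acid hydroxylase strongly induced by PPAR alpha ligands, had log2 values of 11.48, 12.89, 12.65 and 12.98 in HFD+WBM mice, against 12.67, 11.67, 12.38 and 12.22 in HFD mice. Its range was 1.51 within HFD+WBM and 1.00 within HFD, and the log2 fold change 0.27 (standard error 0.35). HFD+WBM replicate 1 lay below all other mice, while the other HFD+WBM mice lay close to or above the highest HFD mouse. Without HFD+WBM replicate 1 the log2 fold change was 0.61 and passed p under 0.05 before adjustment, the only gain of a higher call in this set when a mouse was left out. With another mouse left out it was 0.14 (HFD+WBM replicate 2), 0.11 (HFD+WBM replicate 4), 0.41 (HFD replicate 1) or 0.078 (HFD replicate 2), and did not pass. Cyp4a14, its close relative, was 12.53, 13.49, 13.20 and 13.54 in HFD+WBM mice, against 13.44, 12.64, 12.96 and 12.92 in HFD mice, with the same order of mice in the low positions. Paralogs of the Cyp4a family are alike in sequence, and a further probe set that names Cyp4a10 together with 2 of them was not used. How far the probes tell these relatives apart was not tested.

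Bdh1, the dehydrogenase that makes beta-hydroxybutyrate, was level between the diets. Its log2 values were 11.74, 11.87, 11.70 and 12.20 in HFD+WBM mice, against 12.06, 11.68, 11.93 and 11.86 in HFD mice (means 11.88 ± 0.23 with HFD+WBM and 11.88 ± 0.16 with HFD, SD, n = 4 each). The 95% confidence interval of its log2 fold change was -0.38 to 0.36. Vnn1, a pantetheinase and PPAR alpha target, was 10.56, 11.72, 11.29 and 11.62 in HFD+WBM mice, against 11.74, 10.27, 11.23 and 11.11 in HFD mice, and so spread over 1.16 within HFD+WBM and 1.47 within HFD around a log2 fold change of 0.21. Pdk4, the kinase that switches pyruvate dehydrogenase off in fasting, was 8.36, 9.55, 7.27 and 8.78 in HFD+WBM mice, against 6.44, 7.85, 9.11 and 9.80 in HFD mice. It spread over 2.28 within HFD+WBM and 3.36 within HFD, the widest of the set, and the interval of its log2 fold change (-1.40 to 1.78) includes changes of more than 2-fold in either direction. Its sign turned to -0.43 without HFD replicate 1 and to -0.16 without HFD+WBM replicate 2.

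**Figure D2:**
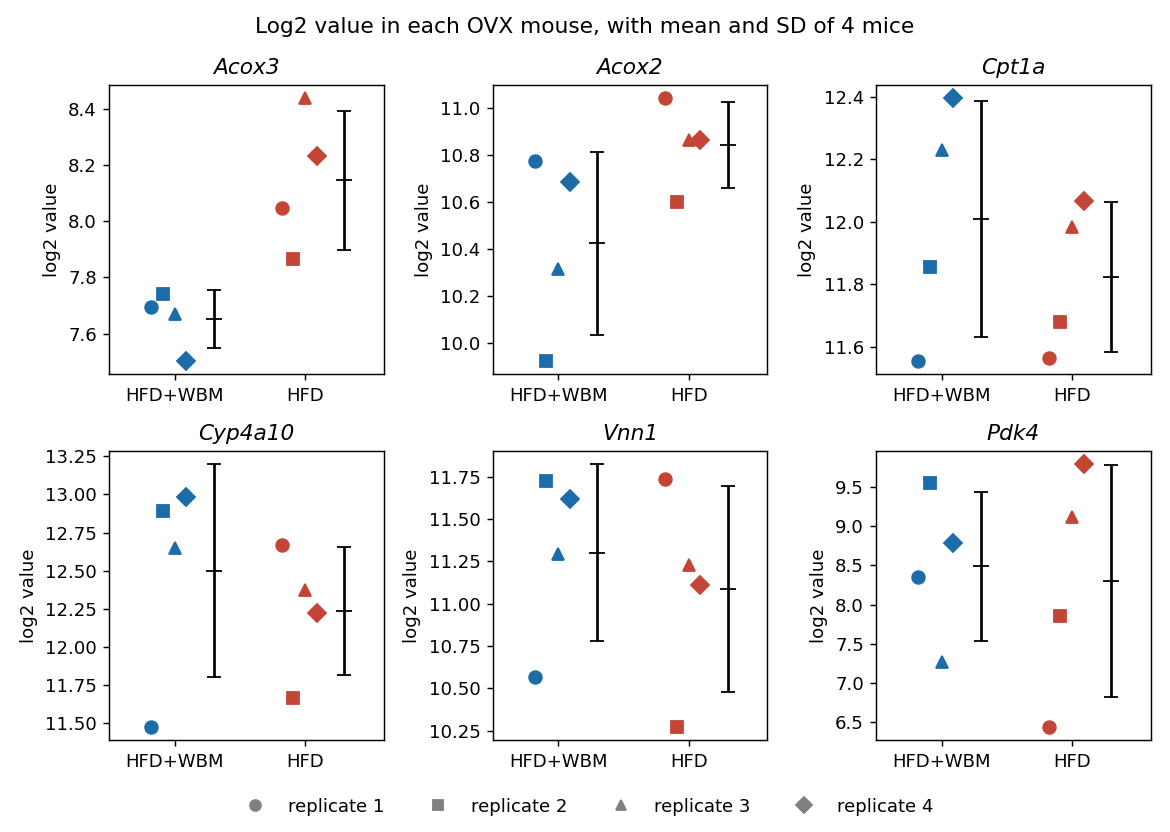
Log2 values of Acox3, Acox2, Cpt1a, Cyp4a10, Vnn1 and Pdk4 in each OVX mouse, HFD+WBM in blue left of HFD in red, with a marker per replicate number and the mean and SD of 4 mice in black (each panel has its own axis). The diets separate for Acox3 alone, HFD+WBM replicate 1 and HFD replicate 2 are the lowest mice of Cyp4a10 and Vnn1, and Pdk4 spans more than 3 log2 units among HFD mice.

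What the genes of the set shared was the order of the mice within each diet. This was noticed after the values were seen, and no test was made of it. HFD+WBM replicate 1 was the lowest of its group for 26 of the 35 genes, against 22.9% of all genes, and HFD replicate 2 was the lowest of its group for 26 of the 35, against 20.7% of all genes. For 22 genes both held, among them Acadm, Hadha, Hadhb, Crot, Cyp4a10, Cyp4a14 and Vnn1, which lie in different compartments. Among the 62 other genes of the pathway described below, HFD+WBM replicate 1 was the lowest of its group for 31 and HFD replicate 2 for 19, fewer than the 23 of HFD replicate 1. At the other end, HFD+WBM replicate 4 was the highest of its group for 25 genes and HFD replicate 1 for 19, against 25.1% and 22.6% of all genes and 34 and 12 of the 62 other pathway genes. The median deviation of the 35 genes from their group's mean was -0.25 in HFD+WBM replicate 1 and -0.22 in HFD replicate 2, where the median over all genes was 0.004 and 0.04. The mean log2 value of the 35 genes was 11.23, 11.63, 11.45 and 11.77 in the HFD+WBM mice, against 11.58, 11.25, 11.59 and 11.57 in the HFD mice. HFD replicate 2 stood apart below the other HFD mice. The HFD+WBM mice were spread more evenly, with replicate 1 the lowest. With each array centred on its median the counts of lowest genes in these 2 mice were 28 and 28, and with quantile normalization 26 and 25. The upper end depended on the scaling: with centred arrays HFD+WBM replicate 4 was highest for 30 genes and HFD replicate 1 for 15, fewer than the 17 of HFD replicate 3, and with quantile normalization the counts of HFD+WBM replicate 4 and HFD replicate 1 were 18 and 19. The mean of the hepatocyte markers was 13.41 in HFD+WBM replicate 1 and 13.39 in HFD replicate 2, within the range of the other mice. For 32 of the 35 genes the diet difference was smaller than the pooled SD within diets, the exceptions being Acox3, Acox2 and Etfa. The share of all genes for which this holds was not counted, so the count is not read as a trait of this set.
Not every gene followed that order. Acox3 was lowest in HFD+WBM replicate 4, Acox2 in HFD+WBM replicate 2, and Pdk4 and Cpt1a were lowest among HFD mice in replicate 1, the mouse that was highest for most of the set.

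**Figure D3:**
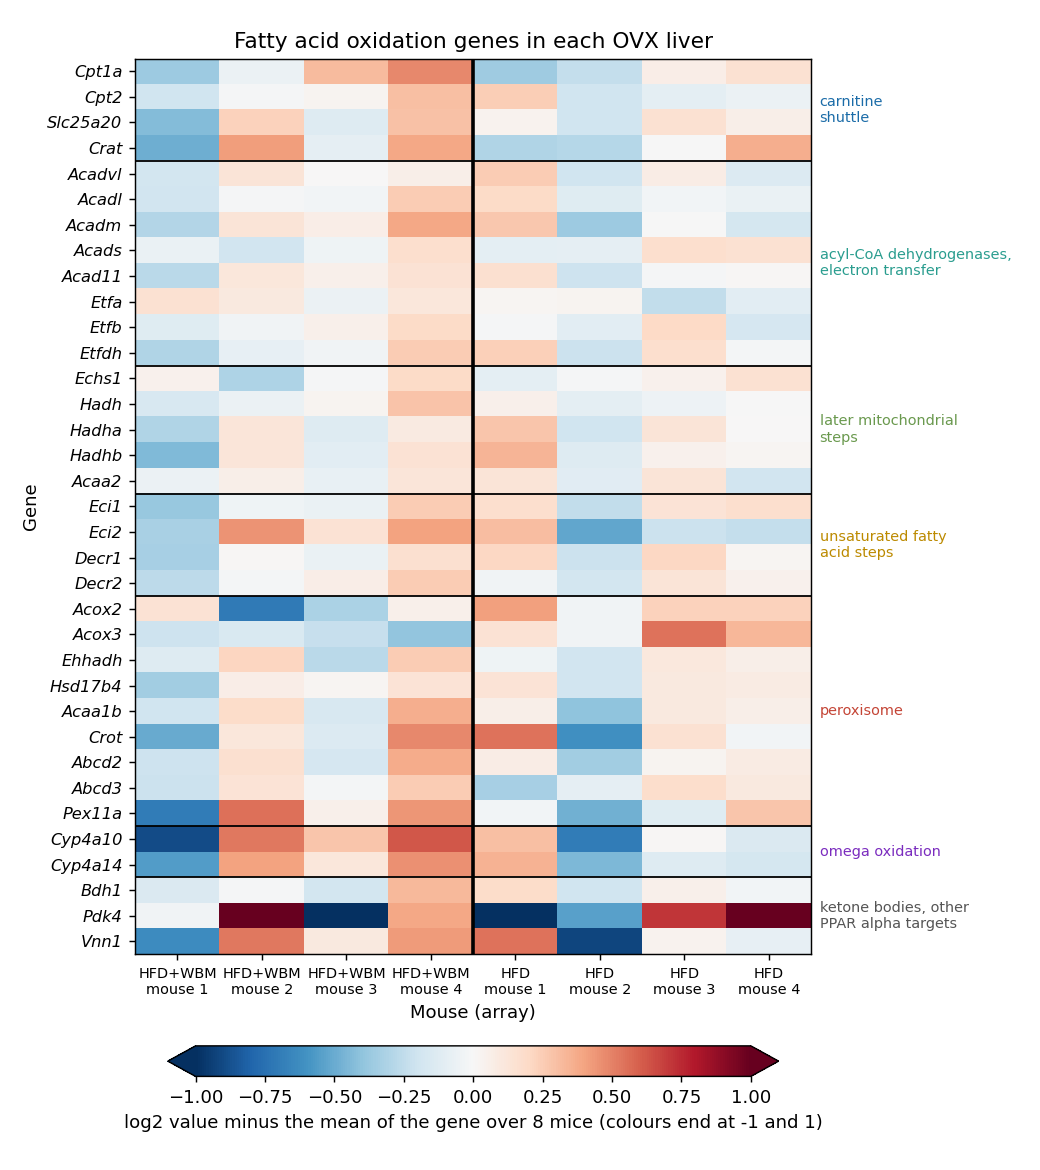
Log2 value of each of the 35 genes in each OVX mouse minus that gene's mean over the 8 mice (red higher, blue lower), 4 HFD+WBM mice left of the thick line and 4 HFD mice right of it, genes by compartment. HFD+WBM mouse 1 and HFD mouse 2 are blue for most genes and HFD+WBM mouse 4 is red, while few rows change colour across the line, Acox3 among them.

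Other genes of the pathway, 62 measured, were counted from a list by role. By the unadjusted threshold of 0.05, 6 of the 62 were lower and 1 was higher in the HFD+WBM mice. The shares of all genes were 6.9% lower and 4.85% higher. For 2 of the 62 every HFD+WBM mouse lay below every HFD mouse, against 5.02% of all genes. The lists are small, and their counts are read beside these shares. Of 16 measured of 18 further peroxisomal genes, the HFD+WBM mice had 2 lower and 0 higher at an unadjusted p under 0.05. Scp2, whose longer product is the thiolase of branched chains and bile acid precursors, had log2 values of 12.11, 12.19, 12.24 and 12.27 in HFD+WBM mice, against 12.72, 12.56, 12.82 and 12.77 in HFD mice. It was 1.43-fold lower with HFD+WBM (log2 fold change -0.51, standard error 0.13, adjusted p of 0.37 from limma, exact permutation p of 0.029). Nudt7, a peroxisomal hydrolase of coenzyme A, was 11.05, 10.29, 10.81 and 10.56 in HFD+WBM mice, against 11.06, 11.44, 11.81 and 11.28 in HFD mice, 1.65-fold lower. In both genes every HFD+WBM mouse lay below every HFD mouse, and every omission of a mouse kept p under 0.05 before adjustment. With Acox3 they are the genes of the lists whose diets did not overlap, and none was higher with HFD+WBM in all mice (3.21% of all genes were). Other peroxisomal genes of branched chains, Amacr, Phyh and Hacl1, had log2 fold changes of -0.05, 0.12 and -0.08.

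Of 9 measured of 10 further omega oxidation genes, 2 were lower and 7 did not pass. Among the 7, Cyp4a12a and Cyp4a12b had very low probe signals (1.51% and 1.87% of genes lay below them), so little can be read from them. Cyp4f14, a hydroxylase of leukotrienes and fatty acids, was 10.64, 10.00, 10.21 and 10.18 in HFD+WBM mice, against 11.08, 10.94, 10.95 and 10.27 in HFD mice, 1.47-fold lower. Cyp4f18, a relative known from leukocytes, was 6.50, 6.25, 6.14 and 5.98 in HFD+WBM mice, against 6.85, 6.61, 6.87 and 6.28 in HFD mice, 1.35-fold lower. The diets overlapped for both, and neither passed when any mouse other than HFD+WBM replicate 1 or HFD replicate 4 was left out, with log2 fold changes of -0.73 to -0.46 for Cyp4f14 and -0.56 to -0.36 for Cyp4f18.
Of 4 measured of 6 genes of ketone body use and transport, 2 were lower. Slc16a1, a carrier of lactate and ketone bodies, was 8.97, 9.21, 8.29 and 8.80 in HFD+WBM mice, against 9.37, 9.16, 9.65 and 9.60 in HFD mice, 1.55-fold lower. Oxct1, the enzyme that uses ketone bodies and that hepatocytes lack, was 6.37, 5.67, 5.24 and 5.96 in HFD+WBM mice, against 6.60, 6.14, 6.60 and 6.82 in HFD mice, 1.66-fold lower. Each overlapped by a single mouse of either diet, and both kept p under 0.05 without any single mouse. The probe signal of Oxct1 was low (25.9% of genes lay below it), and with an offset of 64 before the log its log2 fold change was -0.38, against -0.73 as deposited. Beside the Kupffer cell and macrophage markers given above, 4 of 8 stellate cell markers were lower in HFD+WBM livers at an unadjusted p under 0.05. They were Lrat, Col1a1, Col1a2 and Col3a1, and 6.9% of all genes were lower at that threshold. Pdgfrb, Dcn and Reln had log2 fold changes of -0.46, -0.15 and -0.14 and did not pass. Des went the other way, at 0.33, and did not pass. The mean log2 value of the 8 stellate cell markers was 8.18 to 8.81 with HFD+WBM and 8.64 to 9.33 with HFD, none at 0. Of 6 sinusoidal endothelium markers 1 was lower at that threshold, Lyve1, and their median log2 fold change was -0.27. The medians of the cholangiocyte and lymphocyte markers were -0.27 and -0.14, with 0 lower. Those of adipocyte and skeletal muscle markers were 0.07 and 0.05, with 0 lower. The part of these cell type lists in the values of Slc16a1, Oxct1, Cyp4f14 and Cyp4f18 was not tested.

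Of 14 measured of 16 further mitochondrial genes, 1 was higher. Slc25a29, a mitochondrial carrier of basic amino acids first described as a carnitine carrier, was 7.25, 7.15, 7.13 and 6.96 in HFD+WBM mice, against 6.28, 7.20, 6.05 and 5.90 in HFD mice, 1.70-fold higher (log2 fold change 0.77, standard error 0.27, exact permutation p of 0.11). HFD replicate 2 lay among the HFD+WBM mice, and without HFD replicate 4 the log2 fold change was 0.61 and did not pass. Its probe signal was low as well (38.0% of genes lay below it), and with an offset of 64 its log2 fold change was 0.46. Of 19 measured of 21 regulators none passed. Ppara itself was 11.23, 11.61, 11.74 and 11.80 in HFD+WBM mice, against 11.08, 11.34, 11.52 and 11.59 in HFD mice (log2 fold change 0.21, standard error 0.18). In either diet replicate 1 was lowest. Ppargc1a, a coactivator of oxidative genes, was 9.20, 8.80, 8.85 and 9.21 in HFD+WBM mice, against 8.02, 8.92, 8.42 and 9.16 in HFD mice, and its log2 fold change of 0.38 was 0.56 and past p under 0.05 without HFD replicate 4. It was 0.18 without HFD replicate 1 and 0.21 with the mean of all its probe sets, and passed in neither. Fgf21, a PPAR alpha-induced hormone, was 6.34, 7.22, 6.47 and 7.33 in HFD+WBM mice, against 7.20, 7.05, 8.10 and 7.44 in HFD mice. Its log2 fold change of -0.60 (standard error 0.30) did not pass with all mice, and with a mouse left out it passed without HFD+WBM replicate 4 (-0.77) or HFD replicate 2 (-0.74), while it was -0.39 without HFD replicate 3 and did not pass.

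**Figure D4:**
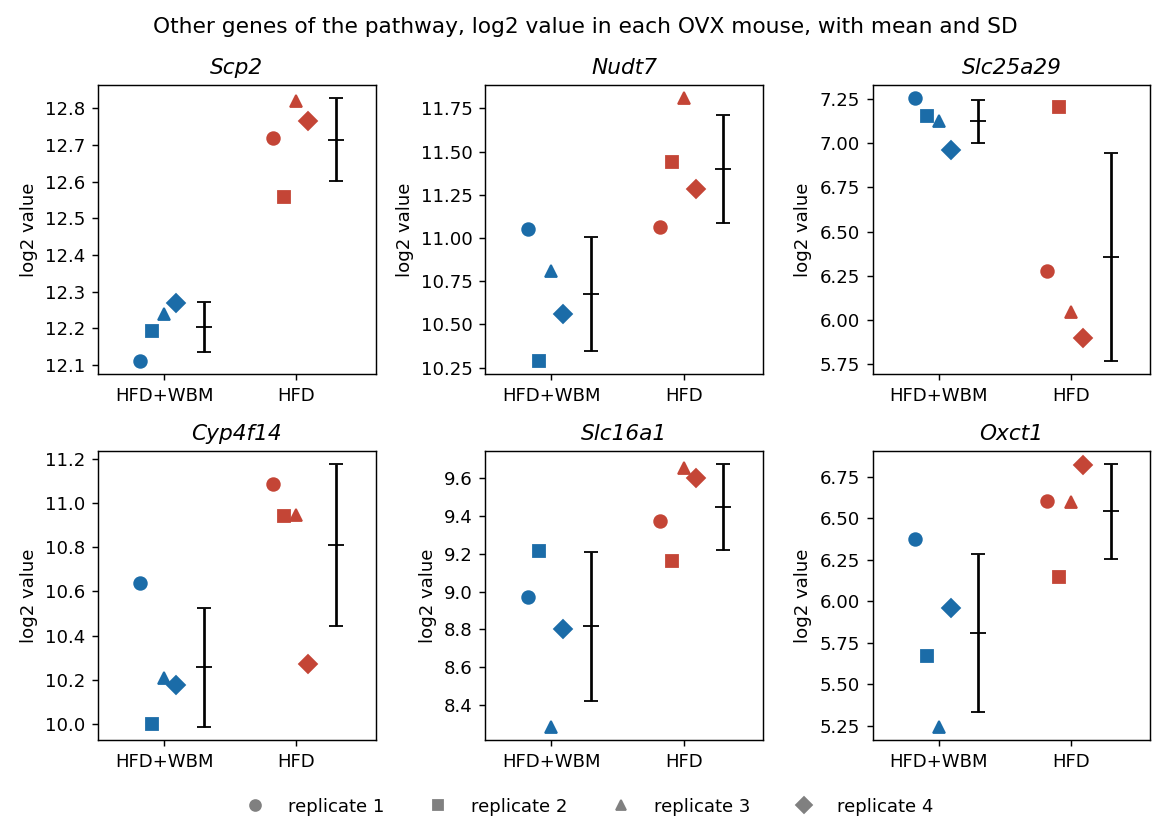
Log2 values of 6 genes outside the set in each OVX mouse, HFD+WBM in blue left of HFD in red, with a marker per replicate number and the mean and SD of 4 mice in black (each panel has its own axis). Scp2 and Nudt7 separate the diets, while Slc25a29, Cyp4f14, Slc16a1 and Oxct1 overlap by a mouse or more.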

How the data were processed

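Affymetrix Mouse Gene 1.0 ST arrays measured the liver RNA of 4 OVX HFD+WBM and 4 OVX HFD mice. The authors made the deposited log2 values with IterPLIER in Affymetrix Power Tools 1.8.6, after background correction and normalization of the intensities, for 28944 probe sets. Neither a constant added before the log nor a genome build is stated there. The platform annotation gave 1 gene to 21789 probe sets, and the brightest of a gene's probe sets (by its mean in all 8 mice) stood for it.

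Diet differences were fitted with limma 3.58.1 (lmFit and eBayes, R 4.3.3) on all 19938 genes, with Benjamini-Hochberg adjustment over them, and the fit was tested on simulated data. Exact permutation tests (scipy 1.17.1) were two-sided over all 70 divisions of the mice. The number of mice limits the precision. Values in every mouse were given for genes with p under 0.05 before adjustment, the 2 genes with the smallest p in each compartment, genes with an outlying mouse, and Cpt1a, Acadm, Ehhadh, Cyp4a10, Cyp4a14, Bdh1, Pdk4, Vnn1, Ppara, Ppargc1a and Fgf21. Pex11a and Crot, and Amacr, Phyh and Hacl1, were chosen after their values were seen. The genes, lists and rules were chosen with earlier results of these data known. Alternatives were other scalings, offsets of 16 and 64, the 50% brightest genes, other variance models and tests, all rows or all probe sets, a replicate block and leaving out each mouse.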

Additional observations from a re-analysis of the deposited data

Results flagged for a closer look

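In 3 genes a single mouse lay far from the others of its diet, among 90 groups of 4 mice tested in 45 genes, where chance flags about 1 in 20 groups. All 3 were in HFD replicate 2. Eci1, the mitochondrial isomerase, was 10.75 in that mouse and 11.13 to 11.16 in the other HFD mice. Acaa1b, the peroxisomal thiolase, was 11.67 there and 12.14 to 12.18 in the others, and Abcd2, the very long chain importer, was 10.28 there and 10.66 to 10.71 in the others.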

How the results depend on the processing

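The count of genes past the study's thresholds was 0 under all alternatives. At 1.5-fold it was 0 with all mice, but Cyp4a10 passed that threshold without HFD+WBM replicate 1 (0.61) and Acox3 without HFD replicate 2 (-0.59). Acox3 was lower at p under 0.05 before adjustment in all alternatives. The count of lower genes was 2 with an offset of 64, with the 50% brightest genes alone and with limma's prior variance fitted on signal, and 1 to 2 when a mouse was left out, the second gene being Acox2 each time. The count of higher genes was 1 with that prior variance (Eci2) and 0 to 1 when a mouse was left out (Cyp4a10, without HFD+WBM replicate 1). With the replicate number as a block 2 genes were lower, Acox2 the second. Over all genes, deviations of same-numbered mice correlated at -0.12 to -0.02, and 0 of 8 mice correlated best with their own number. A correlation over all genes cannot show whether some genes share an order by number. Ppara and Cpt1a rose with the replicate number in either diet, and whether this reflects a pairing was not tested. Genes of the whole array at an adjusted p under 0.05 numbered 139 with the signal-dependent prior, 80 with an offset of 64, 19 among the 50% brightest, 2 with an offset of 16 and 1 without HFD+WBM replicate 2, and 0 otherwise; 0 of the 35 were among them, while Scp2 and Nudt7 were with that prior (adjusted p of 0.018 and 0.021 from limma, up to 0.57 for both over the other alternatives). The median log2 fold change of the 35 genes was -0.03 to 0.11 when a mouse was left out. Signs of genes near 0 turned: Bdh1 to 0.052 with quantile normalization and 0.040 with array weights, and, when a mouse was left out, Bdh1 ranged from -0.12 to 0.053, Ehhadh from -0.046 to 0.13, Vnn1 from -0.058 to 0.46, Crat from -0.0073 to 0.29 and Pdk4 from -0.43 to 0.69. The cause was not tested. Cyp4f14 and Cyp4f18 did not pass with array weights, Cyp4f18 also with an offset of 64 or the signal-dependent prior, and Cyp4f14 with the pooled-variance t-test. Fgf21 passed with either offset and with that prior.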

Other observations

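Lipogenic genes of the same mice are given beside the order of mice described above, as values with no test. In HFD+WBM replicate 1, the lowest of its diet for most oxidation genes, Fasn (fatty acid synthase) was 13.17 and Elovl6 (fatty acid elongase) 12.34, while HFD+WBM replicates 2 to 4 had 11.08 to 11.49 for Fasn and 10.35 to 10.74 for Elovl6. In HFD replicate 2, the lowest of its diet for most oxidation genes, Fasn was 13.57 and Elovl6 13.23, the highest of the HFD mice. In HFD replicate 1 Fasn was 12.37 and Elovl6 11.85, the lowest of the HFD mice. The other HFD mice had 13.14 to 13.57 for Fasn and 12.96 to 13.23 for Elovl6. As deposited, HFD replicate 1 was the highest for 19 oxidation genes. With centred arrays it was highest for 15, fewer than the 17 of HFD replicate 3. Among the 62 other pathway genes it was the lowest of its group for 23 and the highest for 12.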
